A study of Caenorhabditis elegans with 32 samples.

Results

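The insulin receptor to DAF-16 pathway was followed through 10 *C. elegans* genes: daf-2, ist-1, age-1, daf-18, pdk-1, akt-1, akt-2, sgk-1, daf-16 and skn-1. They were chosen by name, and the systematic name of every probe was mapped to its gene symbol. All 10 genes were measured by 28 probes in all, out of 25497 genes and 43314 probes tested. The daf-2 gene had 7 probes, daf-16 had 5, age-1, daf-18 and skn-1 had 3 each, akt-1 and akt-2 had 2 each, and ist-1, pdk-1 and sgk-1 had 1 each. Levels came from 32 one-colour microarrays of whole worms on day 7 of adulthood at 25 °C, in 8 groups of 4 arrays. Worms carrying both csa-1(tm4539) and csb-1(ok2335) (the double mutant), either mutation alone, or neither (the wild-type strain N2) were given 500 µM nicotinamide riboside (NR), a precursor of NAD+, from the L4 larval stage, or water as the vehicle. csa-1 and csb-1 are the worm counterparts of the Cockayne syndrome genes, which act in transcription-coupled DNA repair, and each mutation is represented by a single allele.

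In worms, insulin-like peptides bind the receptor DAF-2, which recruits the phosphoinositide 3-kinase AGE-1. The lipid that AGE-1 makes, and that the phosphatase DAF-18 removes, activates PDK-1, AKT-1, AKT-2 and SGK-1, and these kinases keep the FOXO transcription factor DAF-16 out of the nucleus. SKN-1, an Nrf-like transcription factor of the oxidative stress response, is restrained by the same kinases. The pathway is best known for its control of lifespan and of the dauer larva, and much of that control acts on the place and activity of the proteins, which an RNA level does not show.

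Each group had a slide to itself, so slide and group cannot be told apart in any comparison. Where the methods speak of 3 biological replicates the labels list 4 arrays, and all 4 were used. The methods do not say whether replicates were separate cultures or which arrays they are, so p-values measure the spread between these arrays. Between 46.9% and 78.4% of spots were well above background per array, with the lowest share on the array of N2 vehicle replicate 1. The array labelled csa-1 NR replicate 4 went against its label: csb-1 probe A_12_P159795 was at -4.55 on it, against -0.20 to 0.01 on the other 3 arrays of that group, and csa-1 probe A_12_P118898 was at 0.79, against -1.23 to -0.96. On these probes the csb-1 arrays on NR were at -5.08 to -3.09 and at 0.35 to 0.73. The array was kept as labelled, and why it differs was not tested. Results whose call ended, or whose value moved by more than 1.5 times, when 1 of these arrays was left out are also given without it.

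All levels below are scaled log2 levels: the Z-score of the log2 signal within an array, multiplied by 3.74, the mean SD of log2 signals, so that a difference of 1 is close to a doubling. A level is centred on the mean of its array's gene spots, a level below 0 is dimmer than that mean, and levels of different probes were not compared. Differences were tested with limma across all 43314 probes with Benjamini-Hochberg adjustment. A change was called when the adjusted p was at most 0.05, the Z-ratio was at least 1.5 in size and the mean level of the groups compared was above 0, and an interaction was called on the adjusted p alone.

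The transcript levels of the pathway genes differed little among the 8 groups. In 17 comparisons, which make 476 tests of member probes, 0 changes were called, 6 passed the adjusted p alone and 50 had an unadjusted p under 0.05. For the whole array, the called share was 0.656% of probes for csa-1 against N2 on vehicle, 0.446% for csb-1 and 0.584% for the double mutant, and on NR 0.259%, 2.42% and 1.17%. For NR against vehicle it was 2.12% in csa-1, 1.26% in csb-1, 2.05% in the double mutant and 0.658% in N2. For the effects averaged over the other factors it was 2.56% for NR, 1.79% for the csb-1 mutation and 3.02% for the csa-1 mutation. For the interactions it was 0.0115% for csa-1 by csb-1 on vehicle, and 0.0416%, 0.0646% and 0.136% for the NR effect in csa-1, csb-1 and the double mutant, each minus that in N2. A count of 0 among 28 probes is therefore near the count that the background share gives. In an F test for any difference among the 8 groups, 3 of 28 member probes passed and 9 had an unadjusted p under 0.05, against 24.2% of all probes that passed. Those 3 were daf-2 probe A_12_P137010 (adjusted p = 0.0025), daf-16 probe A_12_P112051 (adjusted p = 0.024) and daf-2 probe A_12_P107021 (adjusted p = 0.035).

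**Figure D1:**
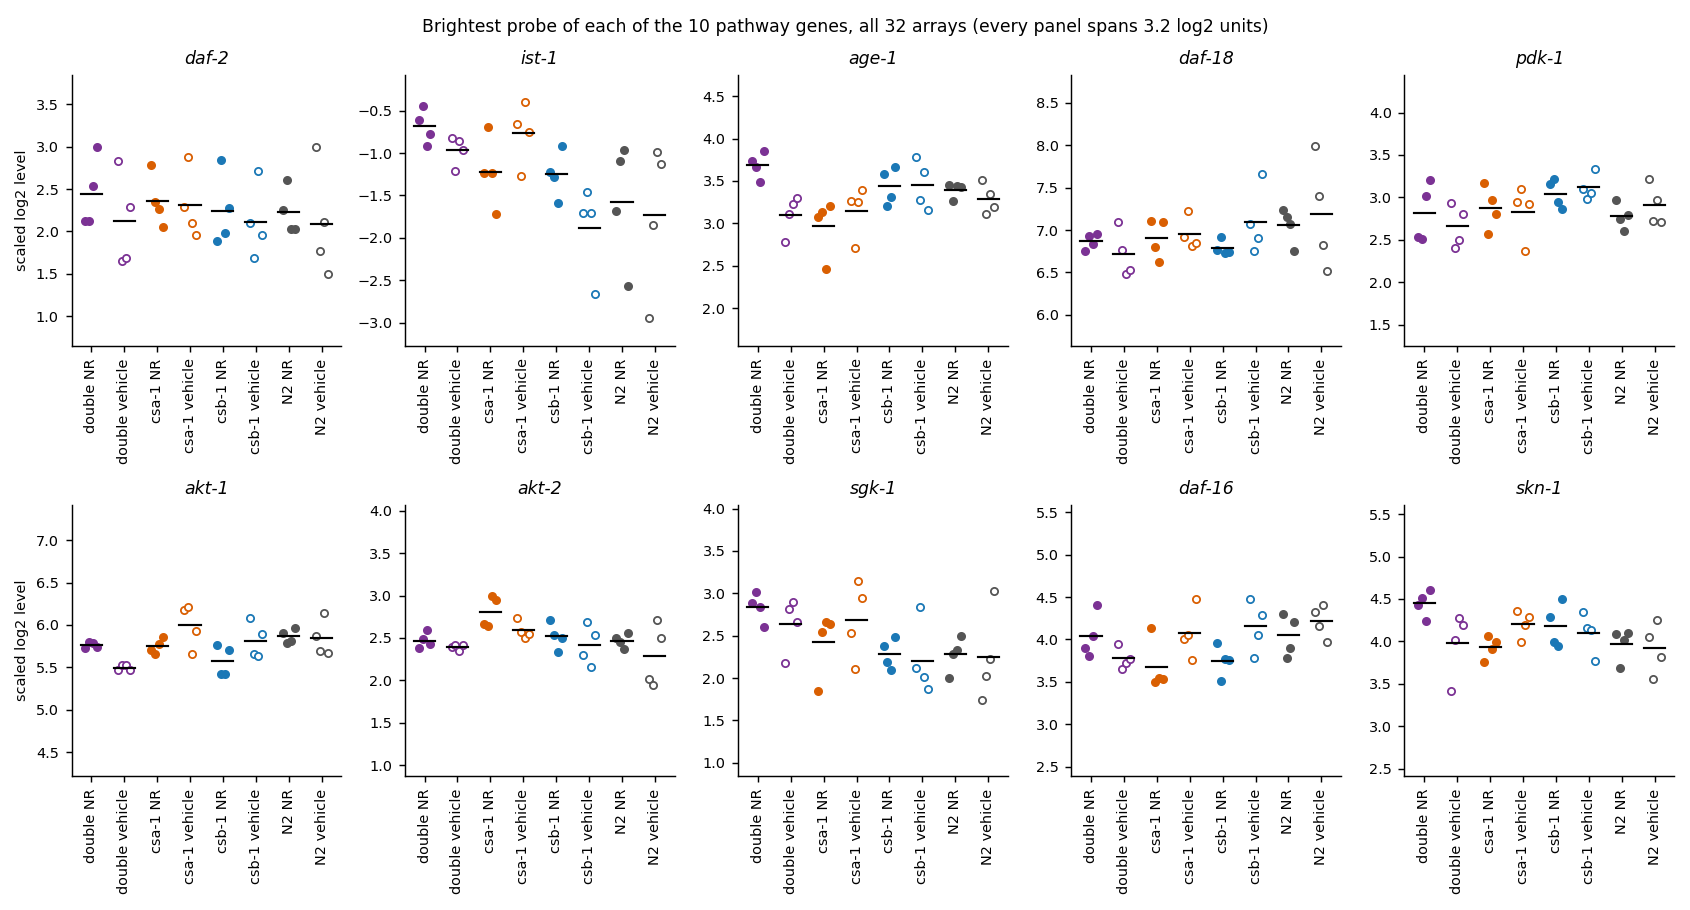
Scaled log2 level (y axis) of the brightest probe of each of the 10 genes on all 32 arrays, with the 8 groups on the x axis, filled points for NR, open points for vehicle and a line at the mean of 4 arrays. The group means spanned 1.20 for ist-1, 0.72 for age-1 and 0.35 for daf-2.

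At the head of the pathway, the receptor gene daf-2 gave different pictures on different probes. Probe A_12_P137010, assigned to transcript Y55D5A.5b, was higher on NR: its level averaged -1.77 ± 0.57 on the 16 NR arrays, against -2.87 ± 0.71 on the 16 vehicle arrays (SD), a difference of 1.10 (SE 0.20, 95% confidence interval 0.69 to 1.5, limma adjusted p = 0.00025). By array, the double mutant had -1.79, -1.50, -0.63 and -1.55 on NR, against -2.37, -2.13, -2.05 and -2.54 on vehicle. The csa-1 strain had -2.25, -1.94, -2.60 and -1.82 on NR, against -2.74, -3.70, -2.45 and -3.49 on vehicle. The NR and vehicle arrays did not overlap in the double mutant and overlapped in csa-1. The csb-1 strain had -2.03, -1.75, -0.88 and -1.93 on NR, against -2.78, -2.14, -2.03 and -3.77 on vehicle. N2 had -2.78, -2.04, -1.85 and -1.04 on NR, against -3.44, -4.31, -3.37 and -2.61 on vehicle. The groups overlapped in N2 and met at -2.03 in csb-1, and the mean was higher on NR in each strain, by 0.91 in the double mutant, 0.94 in csa-1, 1.03 in csb-1 and 1.51 in N2. Within single strains, only the change in N2 passed the adjusted p (1.51, SE 0.40, limma adjusted p = 0.049), where 1.55% of all probes did, and it was lost in 23 of the 32 fits that leave out 1 array, N2 vehicle replicate 1 among them (adjusted p = 0.11).

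This probe is dim. It was well above background on 15 of 16 NR arrays and on 8 of 16 vehicle arrays, and on 1 of 4 arrays of N2 vehicle, so its mean level lies below 0 and the change was not called. The averaged change was 1.07 (adjusted p = 0.00057) when the array labelled csa-1 NR replicate 4 was left out, and leaving out any single array gave adjusted p-values from 9.9e-05 to 0.00057. With normexp background correction it was 0.19 (adjusted p = 0.43). Over the whole array 11.9% of probes passed the adjusted p for NR, and 2 of the 28 member probes did. Sperm markers moved with the treatment too: of 6 measured of 8 listed, 3 were called higher on NR and 5 passed the adjusted p, with a median change of 1.05, and their mean level was 1.34 to 2.44 on NR arrays, against 0.10 to 1.88 on vehicle arrays. Of the intestine markers 2 of 6, and of the hypodermis markers 2 of 4, were called lower on NR. The share of spots well above background was 65.5% to 78.4% on NR arrays, against 46.9% to 78.3% on vehicle arrays. Their part in the daf-2 result was not tested. In RNA of whole worms, fewer cells of a type and less RNA per cell cannot be told apart.

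The second daf-2 probe with a difference, A_12_P107021 (transcript Y55D5A.5a), was well above background on all 32 arrays. It averaged 0.11 on NR, against -0.23 on vehicle (difference 0.34, SE 0.11, limma adjusted p = 0.044), and 0.12 in carriers of the csa-1 mutation, against -0.24 in strains with wild-type csa-1 (difference 0.36, SE 0.11, adjusted p = 0.039). The 4 double mutant arrays on NR lay at 0.30, 0.30, 0.42 and 0.45, above the 4 csa-1 arrays on NR at 0.15, 0.17, 0.08 and -0.08. N2 on vehicle was lowest, with -0.09, -1.30, -0.36 and -0.87. Neither change was called, since the Z-ratios were 0.99 and 1.13 and the mean level lies below 0. The adjusted p was above 0.05 in 21 of the 32 fits without 1 array for NR and in 15 for the csa-1 mutation. With normexp correction the differences were 0.024 and 0.14, with 75th percentile scaling 0.15 and 0.24 and with quantile normalization 0.22 and 0.21, and none of these passed the adjusted p.

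The other 5 daf-2 probes, A_12_P172332 to A_12_P172336, report the same transcript Y55D5A.5a and showed no difference among groups (F test adjusted p from 0.68 to 0.94). The brightest of them, A_12_P172333, averaged 2.45 ± 0.41 in the double mutant on NR and 2.12 ± 0.56 on vehicle, and 2.23 ± 0.27 in N2 on NR and 2.09 ± 0.65 on vehicle (SD, n = 4 each). Across the 32 arrays these 5 probes followed each other closely, with Pearson r of 0.903 to 0.988 over 10 pairs, and followed A_12_P137010 weakly, with r of 0.059 to 0.231. These correlations describe probes that share their arrays, and carry no test. The daf-2 result on NR therefore rests on 1 dim probe, and on 1 other probe with a smaller change, of 7.

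**Figure D2:**
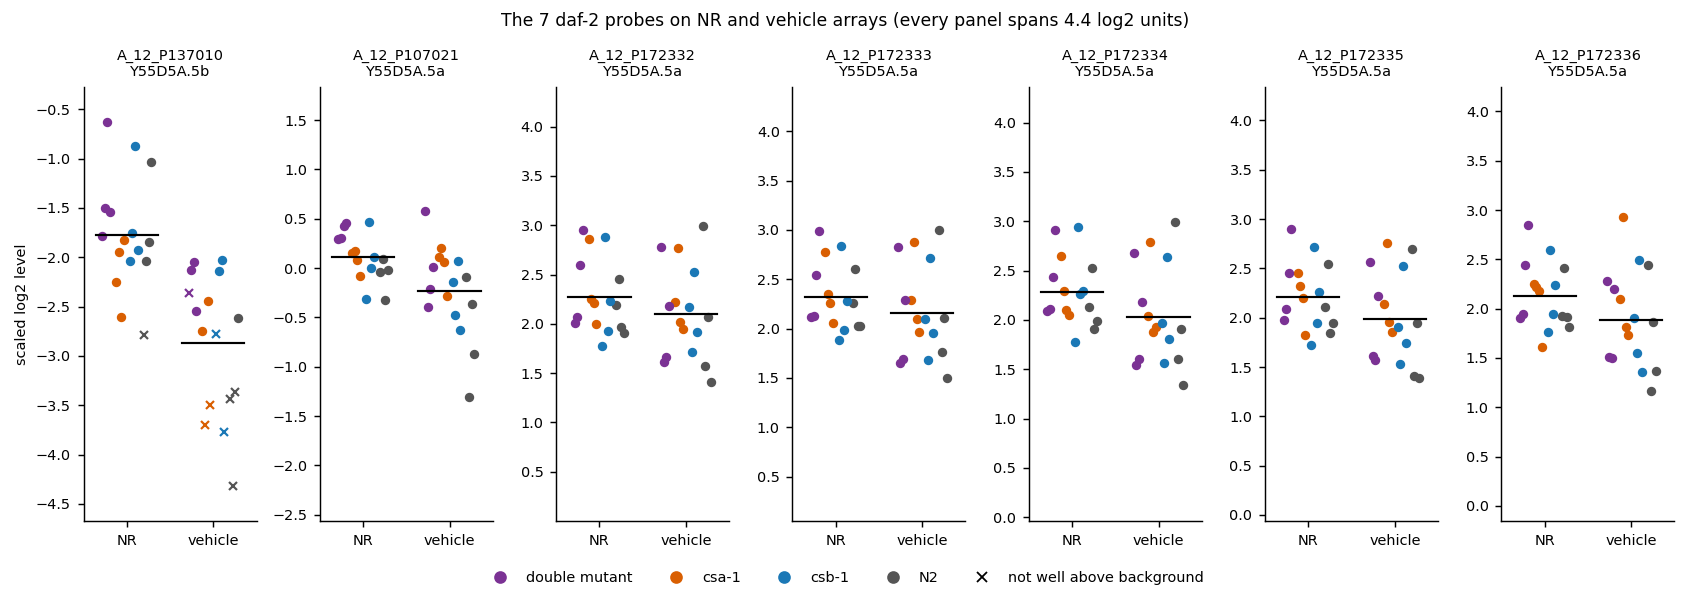
Scaled log2 level (y axis) of the 7 daf-2 probes on 16 NR and 16 vehicle arrays, coloured by strain, with a line at the mean of 16 and crosses where the spot was not well above background. Probe A_12_P137010 averaged -1.77 on NR against -2.87 on vehicle, and the 5 probes from A_12_P172332 to A_12_P172336 overlap throughout.

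The gene ist-1, which encodes an insulin receptor substrate-like adaptor, was higher in carriers of the csa-1 mutation. Its single probe, A_12_P101096, averaged -0.91 over the 16 arrays of csa-1 and the double mutant (range -1.71 to -0.40), against -1.61 over the 16 arrays of csb-1 and N2 (range -2.95 to -0.91). The difference was 0.70 (SE 0.17, 95% confidence interval 0.34 to 1.06, limma adjusted p = 0.012), and it was not called because the mean level is below 0. By array, the double mutant had -0.61, -0.45, -0.92 and -0.77 on NR and -0.82, -1.21, -0.85 and -0.97 on vehicle. The csa-1 strain had -1.24, -0.69, -1.24 and -1.71 on NR and -0.66, -1.27, -0.40 and -0.75 on vehicle. All but 1 of the double mutant arrays were above -1, and csa-1 on NR was the lowest group of carriers. The csb-1 strain had -1.23, -1.28, -1.59 and -0.91 on NR and -1.71, -1.46, -1.71 and -2.67 on vehicle, and N2 had -1.68, -1.10, -0.97 and -2.56 on NR and -2.95, -1.85, -0.99 and -1.13 on vehicle. The range of the carriers lies at the upper end of the range of the other strains, with overlap. The lowest carrier value, -1.71, is from the array labelled csa-1 NR replicate 4, and the next lowest was -1.27. This probe was well above background on 16 of 16 NR arrays and on 13 of 16 vehicle arrays. The values of -2.95 and -2.67 are from N2 vehicle replicate 1 and csb-1 vehicle replicate 4, where 46.9% and 53.1% of spots were well above background. The value of -2.56 is from N2 NR replicate 4, where 77.0% were.

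Within the vehicle groups, csa-1 against N2 gave a difference of 0.96 (-0.77 against -1.73, SE 0.35, adjusted p = 0.097), and it was 0.77 for the double mutant against N2 on vehicle and 0.89 on NR (adjusted p = 0.24 for both). Without N2 vehicle replicate 1 the csa-1 difference on vehicle was 0.56 (adjusted p = 0.45) and that of the double mutant on vehicle 0.36 (adjusted p = 0.75), and without N2 NR replicate 4 that of the double mutant on NR was 0.56 (adjusted p = 0.51). The averaged difference was 0.60 (adjusted p = 0.015) without N2 vehicle replicate 1. It was 0.74 (adjusted p = 0.0087) when the array labelled csa-1 NR replicate 4 was left out, and without both arrays it was 0.64 (adjusted p = 0.0093). Leaving out any single array gave adjusted p-values from 0.0032 to 0.024, and normexp correction gave 0.28 (adjusted p = 0.091). The share of all probes past the adjusted p for the csa-1 mutation was 12%, and 3 of the 28 member probes passed.

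Muscle markers moved with the csa-1 mutation as well. Of 4 listed and measured, 3 were called higher in carriers and all 4 passed the adjusted p, with a median change of 0.68. Their mean level was 1.64 to 3.81 in carriers, with a median of 3.27, against 1.90 to 3.14 in the other strains, with a median of 2.45, and all 4 were well above background on every array. The value of 1.64 is from the array labelled csa-1 NR replicate 4, and the next lowest carrier array was at 2.42. Of the intestine, neuron and hypodermis markers, 1 of 6, 1 of 5 and 1 of 4 were called higher in carriers. The part of these markers in the ist-1 result was not tested.

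Next in the pathway, age-1, the catalytic subunit of phosphoinositide 3-kinase, was highest in the double mutant on NR. Its brightest probe, A_12_P145190, was at 3.73, 3.67, 3.49 and 3.85 there, against 2.78, 3.12, 3.22 and 3.30 in the double mutant on vehicle, with no overlap between the groups. The difference was 0.58 (SE 0.18, 95% confidence interval 0.21 to 0.95), and its limma adjusted p of 0.069 missed the threshold. In this comparison 16% of all probes had an unadjusted p under 0.05. The other 2 age-1 probes gave 0.57 and 0.68 (adjusted p = 0.12 and 0.14), and the 3 probes correlated at r of 0.867 to 0.920 over the arrays.

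In the other strains age-1 showed no change of that size. It was at 3.07, 3.13, 2.46 and 3.20 in csa-1 on NR, the lowest group, against 3.26, 2.70, 3.25 and 3.39 on vehicle. In csb-1 it was at 3.58, 3.20, 3.31 and 3.66 on NR, against 3.78, 3.28, 3.61 and 3.16 on vehicle, and in N2 at 3.45, 3.26, 3.44 and 3.43 on NR, against 3.51, 3.11, 3.35 and 3.19 on vehicle. Carriers of the csb-1 mutation averaged 3.42, against 3.20 in strains with wild-type csb-1 (difference 0.22, SE 0.09, adjusted p = 0.21). On NR, csa-1 averaged 2.97, against 3.40 in N2 (difference -0.43, SE 0.18, adjusted p = 0.33), and without csa-1 NR replicate 3 this difference was -0.26 (adjusted p = 0.69).

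The phosphatase gene daf-18, which opposes AGE-1, had no change of its brightest probe at an unadjusted p under 0.05 in any comparison. Its group means on that probe, A_12_P103605, ran from 6.72 ± 0.28 in the double mutant on vehicle to 7.19 ± 0.65 in N2 on vehicle (SD, n = 4 each), and the smallest adjusted p over its 51 tests was 0.25.

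Among the kinases, pdk-1, which phosphorylates the AKT kinases, likewise had no change at an unadjusted p under 0.05. Its group means lay between 2.66 ± 0.25 in the double mutant on vehicle and 3.12 ± 0.15 in csb-1 on vehicle (SD, n = 4 each), and its smallest adjusted p was 0.23.

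The kinase gene akt-1 was lowest in the double mutant on vehicle, with 5.47, 5.52, 5.52 and 5.47, against 5.87, 5.69, 6.14 and 5.67 in N2 on vehicle. Those groups did not overlap, and the difference was -0.34 (SE 0.14, adjusted p = 0.20). On NR the double mutant had 5.73, 5.80, 5.79 and 5.74 and N2 had 5.90, 5.79, 5.81 and 5.96. On vehicle, csa-1 was the highest group, at 6.18, 6.22, 5.66 and 5.93. The departure from additive effects of the 2 mutations on vehicle was -0.47 (SE 0.20, adjusted p = 0.36), and carriers of the csb-1 mutation averaged 5.66, against 5.86 in the other strains (difference -0.20, SE 0.07, adjusted p = 0.12). The second akt-1 probe, A_12_P157140, followed the first weakly (r = 0.235).

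Its paralog akt-2 was highest in csa-1 on NR, with a mean of 2.81 ± 0.19, against 2.47 ± 0.08 in N2 on NR (SD, n = 4 each), a difference of 0.34 (SE 0.15, adjusted p = 0.36). The second probe, A_12_P118089, averaged 1.85 in csa-1 on vehicle, against 1.24 in N2 on vehicle (difference 0.62, SE 0.20, adjusted p = 0.075), and the 2 probes correlated at r = 0.837.

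The kinase gene sgk-1, the worm serum- and glucocorticoid-inducible kinase, was higher in carriers of the csa-1 mutation, with a mean of 2.64 (range 1.85 to 3.15), against 2.26 in the other strains (range 1.74 to 3.03). The difference of 0.39 (SE 0.13) passed the adjusted p narrowly (limma adjusted p = 0.048), and its Z-ratio of 1.24 kept it from being called. The double mutant had 2.89, 3.02, 2.84 and 2.61 on NR and 2.17, 2.82, 2.90 and 2.67 on vehicle. The csa-1 strain had 1.85, 2.54, 2.66 and 2.63 on NR and 2.53, 2.11, 3.15 and 2.94 on vehicle. Most carriers lay above 2.5. The csb-1 strain had 2.38, 2.19, 2.09 and 2.48 on NR and 2.12, 2.83, 2.01 and 1.87 on vehicle, and N2 had 2.0, 2.28, 2.34 and 2.50 on NR and 1.74, 2.02, 2.22 and 3.03 on vehicle. With 1 array left out, the adjusted p was above 0.05 in 23 of 32 fits, among them the fits that leave out N2 vehicle replicate 1 (0.35, adjusted p = 0.081) or the array labelled csa-1 NR replicate 4 (0.37, adjusted p = 0.065). With normexp correction the difference was 0.14 (adjusted p = 0.89).

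**Figure D3:**
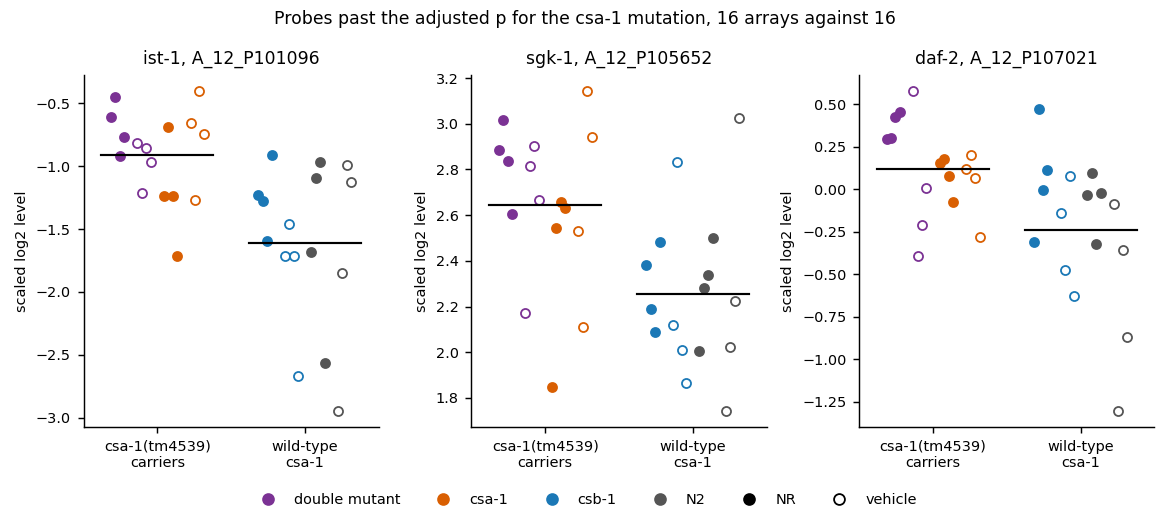
Scaled log2 level (y axis) of ist-1, sgk-1 and daf-2 probe A_12_P107021 in the 16 arrays of csa-1 carriers and the 16 arrays with wild-type csa-1, coloured by strain, filled for NR and open for vehicle, with a line at the mean. The means were -0.91 against -1.61 for ist-1, 2.64 against 2.26 for sgk-1 and 0.12 against -0.24 for daf-2, and the ranges overlap in each panel.

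At the end of the pathway, the levels of daf-16 differed in pattern between its probes. Probe A_12_P112051, assigned to transcript R13H8.1d, was at 2.74, 2.45, 2.47 and 2.59 in the double mutant on NR, against 1.93, 1.68, 2.38 and 2.15 in the double mutant on vehicle, with no overlap (difference 0.53, SE 0.20, adjusted p = 0.15). N2 on NR was at 2.15, 2.06, 2.11 and 2.18, below all 4 double mutant arrays on NR (difference 0.44, SE 0.20, adjusted p = 0.32). The lowest group was csa-1 on NR, at 2.21, 1.96, 1.30 and 1.35. This probe was 1 of the 3 that passed the F test, and none of its single comparisons passed the adjusted p.

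The brightest daf-16 probe, A_12_P105570 (transcript R13H8.1c), ordered the groups otherwise. It was highest in N2 on vehicle, with 4.32, 4.16, 4.41 and 3.97. It was at 3.95, 3.66, 3.72 and 3.77 in the double mutant on vehicle, which lies below all 4 N2 vehicle arrays (difference -0.44, SE 0.19, adjusted p = 0.22). On NR, csa-1 had 4.13, 3.49, 3.54 and 3.54, against 4.01, 4.05, 3.75 and 4.48 on vehicle (difference -0.40, SE 0.19, adjusted p = 0.23), and without csa-1 vehicle replicate 4 the difference was -0.26. The csb-1 strain had 3.95, 3.51, 3.77 and 3.75 on NR, against 4.48, 3.78, 4.06 and 4.29 on vehicle (difference -0.41, SE 0.19, adjusted p = 0.24). The groups overlapped in both strains. The correlations among the 5 daf-16 probes ranged from r = 0.159 to r = 0.946.

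The transcription factor gene skn-1 was highest in the double mutant on NR. Probe A_12_P140800 was at 4.43, 4.51, 4.24 and 4.61 there, against 3.42, 4.02, 4.27 and 4.19 in the double mutant on vehicle (difference 0.47, SE 0.18, adjusted p = 0.17) and 4.08, 3.68, 4.02 and 4.10 in N2 on NR (difference 0.48, SE 0.18, adjusted p = 0.23). All 4 arrays of the double mutant on NR lay above all 4 of N2 on NR, and 1 vehicle array of the double mutant overlapped. Without double mutant vehicle replicate 1, at 3.42, the change on NR was 0.29 (adjusted p = 0.58), and with normexp correction the 2 differences were 0.069 and 0.044. The other 2 skn-1 probes correlated with it and with each other at r of 0.470 to 0.670.

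NR in the double mutant had the same sign for every member. All 28 probes were higher on NR than on vehicle, with a median change of 0.36 and a range of 0.08 to 0.91, where 51.1% of all probes were higher and their median change was 0.01. Of these 28, 0 were called and 7 had an unadjusted p under 0.05. The brightest probes changed by 0.08 (akt-2) to 0.58 (age-1). In the other strains the count above 0 was 10 of 28 in csa-1, 17 of 28 in csb-1 and 23 of 28 in N2, where 50.8%, 48% and 50.2% of all probes were above 0. Probes of 1 gene share their target, so the 28 are not 28 separate observations. Scaling the arrays to their 75th percentile gave 27 of 28, with a median of -0.14 over all probes, and normexp correction gave 9 of 28. In the same comparison 9 of 10 germline and oocyte markers were above 0 with a median change of 0.40 and 0 called, and their mean level was 6.58 to 6.71 on NR, against 6.25 to 6.31 on vehicle. Of the 6 sperm markers, 3 were called higher, the major sperm protein genes msp-3 (1.21), msp-45 (1.17) and msp-31 (1.08), and their mean level was 2.36 to 2.44 on NR, against 1.04 to 1.54 on vehicle. Their part in the pathway genes' levels was not tested. The difference between the NR effect in the double mutant and in N2 was above 0 for 24 of 28 probes, where 53.3% of all probes were, and 0 passed the adjusted p (0.136% of all probes were called).

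**Figure D4:**
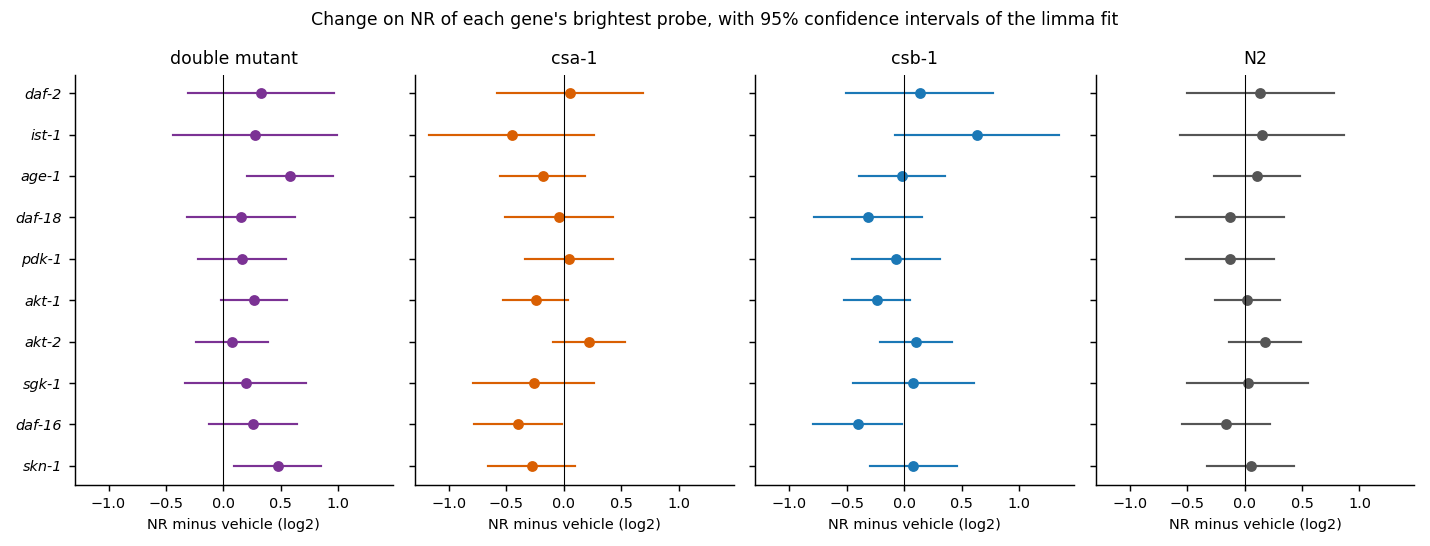
Change on NR (x axis, NR minus vehicle, log2) of the brightest probe of each of the 10 genes, 1 panel per strain, with points for the limma estimate and bars for its 95% confidence interval. All 10 points lie right of 0 in the double mutant, from 0.08 for akt-2 to 0.58 for age-1, and on both sides of 0 in the other strains.

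Genes whose level followed that of the pathway genes over the 32 arrays were sought among the 19792 genes matched by name. The 3 closest to daf-2 were mrp-7, zfr-1 and ell-1 (Pearson r = 0.90, 0.89 and 0.88). Those closest to daf-16 were sqd-1, smg-1 and spat-2 (r = 0.90, 0.90 and 0.88), and those closest to skn-1 were clp-1, M57.2 and panl-2 (r = 0.93, 0.92 and 0.90). These are descriptions over arrays that share slides and groups.

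For the other pathway genes the background was as follows. Over the 17 comparisons together, 1.24% of the tests of all genes were called and 16.5% had an unadjusted p under 0.05. Of 16 listed upstream and complex partners, among them the AGE-1 adaptor aap-1 and the TORC2 subunit rict-1, all 16 were measured and 0 were called by limma in any of the 17 comparisons (21 of 272 tests had an unadjusted p under 0.05). Of 9 SKN-1 regulators, 0 were called (16 of 153 tests had an unadjusted p under 0.05), and pmk-1, a p38 MAP kinase that activates SKN-1, passed the adjusted p alone in csb-1 against N2 on NR (0.51, adjusted p = 0.034). Of 21 DAF-16 regulators and cofactors, 1 was called: cst-1, a Hippo-family kinase, averaged 3.14 in csb-1 on NR, against 2.40 in N2 on NR (difference 0.74, SE 0.19, adjusted p = 0.025), where 2% of all genes were called higher. That call was lost when any of the 8 arrays compared was left out. Counts of 0 and 1 over lists of this size are near what those shares give. The nuclear factor pqm-1 passed the adjusted p for NR averaged over strains (0.34, adjusted p = 0.0034) with bar-1, a beta-catenin (0.39, adjusted p = 0.036), and the GATA factor elt-2 (0.33, adjusted p = 0.0078) and the kinase jnk-1 (0.33, adjusted p = 0.036) passed it for the csa-1 mutation.

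Several of the genes that DAF-16 is known to activate met the full criteria. The lists were chosen with earlier results of these data known, so a count beside a share of all genes is no test. Of 21 measured of 22 listed, 6 were called lower in the double mutant against N2 on NR and 0 higher, with a median change of -0.37, where 0.777% of all genes were called lower. The metallothionein gene mtl-1 differed most, at 1.40 to 1.72 in the double mutant on NR, against 5.58 to 5.96 in N2 on NR (difference -4.15, SE 0.42, adjusted p = 8.9e-07). The small heat shock protein genes hsp-12.6 (-2.77, adjusted p = 0.00025) and hsp-12.3 (-1.72, adjusted p = 0.0002), dod-3 (-2.01, adjusted p = 0.00029), the superoxide dismutase gene sod-3 (-1.33, adjusted p = 0.0011) and the ferritin gene ftn-1 (-0.99, adjusted p = 0.022) were lower too. The 4 arrays of N2 on NR lay above the 4 arrays of the double mutant for each of these genes. N2 itself averaged higher on NR than on vehicle for mtl-1 (5.76 against 4.79), hsp-12.6 (1.64 against -1.17) and hsp-12.3 (2.80 against 1.25). It was also higher on NR for sod-3 (2.50 against 1.67) and ftn-1 (4.90 against 4.72), and lower for dod-3 (2.77 against 3.68). With normexp correction ftn-1 (-1.17, adjusted p = 0.18) and hsp-12.6 (-1.82, adjusted p = 1.2e-05) no longer met the full criteria.

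The same 6 genes were called lower in csb-1 against N2 on NR, again with 0 called higher and a median change of -0.35, where 0.835% of all genes were called lower. Both comparisons share the 4 N2 arrays on NR. The mtl-1 gene was at 2.1 to 2.95 in csb-1 on NR (difference -3.13, SE 0.42, adjusted p = 7.1e-05), and sod-3 was at 0.96 to 1.20, against 2.47 to 2.56 in N2 on NR (difference -1.41, SE 0.23, adjusted p = 0.0006). The values for dod-3, hsp-12.6, hsp-12.3 and ftn-1 were -2.29, -1.94, -0.90 and -0.85. The calls of hsp-12.3 and ftn-1 in csb-1 were lost when any of the 8 arrays compared was left out, and that of ftn-1 in the double mutant when any of 6 was. With normexp correction the csb-1 calls of sod-3 (-1.18, adjusted p = 0.28), ftn-1, hsp-12.3 and hsp-12.6 ended. In csa-1 against N2, 0 of 21 were called on NR, with 5 at an unadjusted p under 0.05 in limma, and 0 on vehicle, with 4. Of all probes, 0.259% were called there on NR and 0.656% on vehicle, so counts of 0 are near what those shares give. For csb-1 and the double mutant against N2 on vehicle the shares were 0.446% and 0.584%. Over the 17 comparisons together, 16.5% of the tests of all genes had an unadjusted p under 0.05. On vehicle, 0 were called in csb-1, with 5 at an unadjusted p under 0.05, and in the double mutant mtl-1 alone was called, at 2.67 to 3.23, against 4.42 to 5.83 in N2 (difference -1.84, SE 0.42, adjusted p = 0.024). That call was lost in 5 of 32 fits without 1 array, N2 vehicle replicate 1 among them (-1.96, adjusted p = 0.0505), with normexp correction (adjusted p = 0.70) and in a fit of only the groups compared (adjusted p = 0.38). Averaged over the other factors, mtl-1 was called lower in carriers of the csa-1 mutation (-0.90, limma adjusted p = 0.0079), which include the double mutant. The csa-1 strain alone averaged 5.05 for mtl-1 on vehicle, against 4.79 in N2, and 4.41 on NR, against 5.76 in N2. In carriers of the csb-1 mutation, mtl-1 (-2.09), dod-3 (-0.996), lys-7 (-0.68), sod-3 (-0.67), hsp-12.3 (-0.53) and ftn-1 (-0.48) were called lower, where 1.79% of all probes were called in either direction. These averaged calls were kept in all 32 fits without 1 array. With normexp correction only the csb-1 calls of mtl-1 and dod-3 were kept. Tissue markers were called for the csb-1 mutation too, all of them lower: the intestine genes ges-1 (-0.60) and vit-6 (-0.53) and the neuron gene snb-1 (-0.46). The mean level of the 6 intestine markers was 4.85 to 5.55 in csb-1 carriers, against 4.97 to 6.12 in the other strains. Markers of other tissues moved in the comparisons with N2 on NR. The muscle gene unc-54 was called higher in the double mutant against N2 (1.19), and the muscle gene myo-3 (-0.78) and the cuticle collagen gene col-19 (-0.99) were called lower in csb-1 against N2. Of the 6 intestine markers, 0 were called in either, and their mean level was 5.22 to 5.55 in the double mutant and 4.90 to 5.03 in csb-1 on NR, against 5.20 to 5.42 in N2 on NR. Their part in the target genes' levels was not tested.

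On NR against vehicle, these targets were called in both directions. In N2, hsp-12.6 was at 1.48 to 1.82 on NR, against -3.01 to 0.10 on vehicle (difference 2.82, SE 0.41, adjusted p = 0.00021), and hsp-12.3 was at 2.64 to 2.99, against 0.56 to 1.84 (difference 1.55, SE 0.25, adjusted p = 0.00087), while 0 of 21 were called lower. In the double mutant hsp-12.6 was at -1.26 to -0.93 on NR, against -1.09 to -0.53 on vehicle, and the difference between its NR effect there and in N2 was -3.20 (SE 0.58, adjusted p = 0.013), on a mean level below 0. The interaction kept its adjusted p in all 32 fits without 1 array, was -1.85 with normexp correction and did not pass in a fit of only the groups compared (adjusted p = 0.12). In such a fit the changes of hsp-12.6 and hsp-12.3 in N2 did not pass either (adjusted p = 0.29 and 0.27), and with normexp correction they were 1.57 and 1.17 and not called. The NR effect minus that in N2 was also called for hsp-12.3 in the double mutant (-1.74, limma adjusted p = 0.040) and dod-3 in csb-1 (-2.14, adjusted p = 0.048). Of all probes, 0.136% and 0.0646% were called. Those 2 calls were lost in 19 and 27 of 32 fits without 1 array. N2 vehicle replicate 1 was among these arrays (-1.52, adjusted p = 0.096, and -2.08, adjusted p = 0.090). With normexp correction neither passed (adjusted p = 0.43 and 0.69). Of the 21, 3 fell on NR in the double mutant, dod-3 (-2.62), hsp-16.1 (-1.22) and ftn-1 (-0.91), where 1.37% of all genes were called lower. With normexp correction hsp-16.1 (-0.53) and ftn-1 (-1.13) were not called, and ftn-1 lost its call in 5 of 32 fits without 1 array. In csb-1, 2 fell, dod-3 (-3.06) and mtl-1 (-1.80), where 0.49% were, and mtl-1 lost its call in 2 of 32 fits without 1 array and with normexp correction (-1.39). In csa-1, hsp-12.3 was higher (1.51, adjusted p = 0.00073) and dod-3 lower (-1.27, adjusted p = 0.013), and normexp correction and a fit of only the groups compared each ended both calls. The dod-3 call in csa-1 rests on the array labelled csa-1 NR replicate 4 (at 0.59 where the group reached 2.90), and without that array the change was -0.73 and not called. Averaged over strains, 4 of the 21 fell on NR, dod-3, mtl-1, the lysozyme gene lys-7 (-0.76) and the cystatin gene cpi-1 (-0.66), where 1.21% of all genes were called lower, and hsp-12.3 rose, where 1.58% were called higher. The lys-7 and cpi-1 calls ended with 75th percentile scaling (-0.49 and -0.40) and quantile normalization (-0.42 and -0.32).

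Markers of other tissues were called in these NR comparisons too. Sperm markers msp-3, msp-45 and msp-31 were higher on NR in csb-1 (1.47, 1.35 and 1.18) as in the double mutant, the collagen genes col-19 (-1.22) and col-140 (-1.56) were lower in csb-1, and the muscle genes unc-15 (-1.12) and unc-54 (-1.34) and the yolk protein gene vit-6 (-1.42) were lower in csa-1. Their part in the target genes' levels was not tested.

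**Figure D5:**
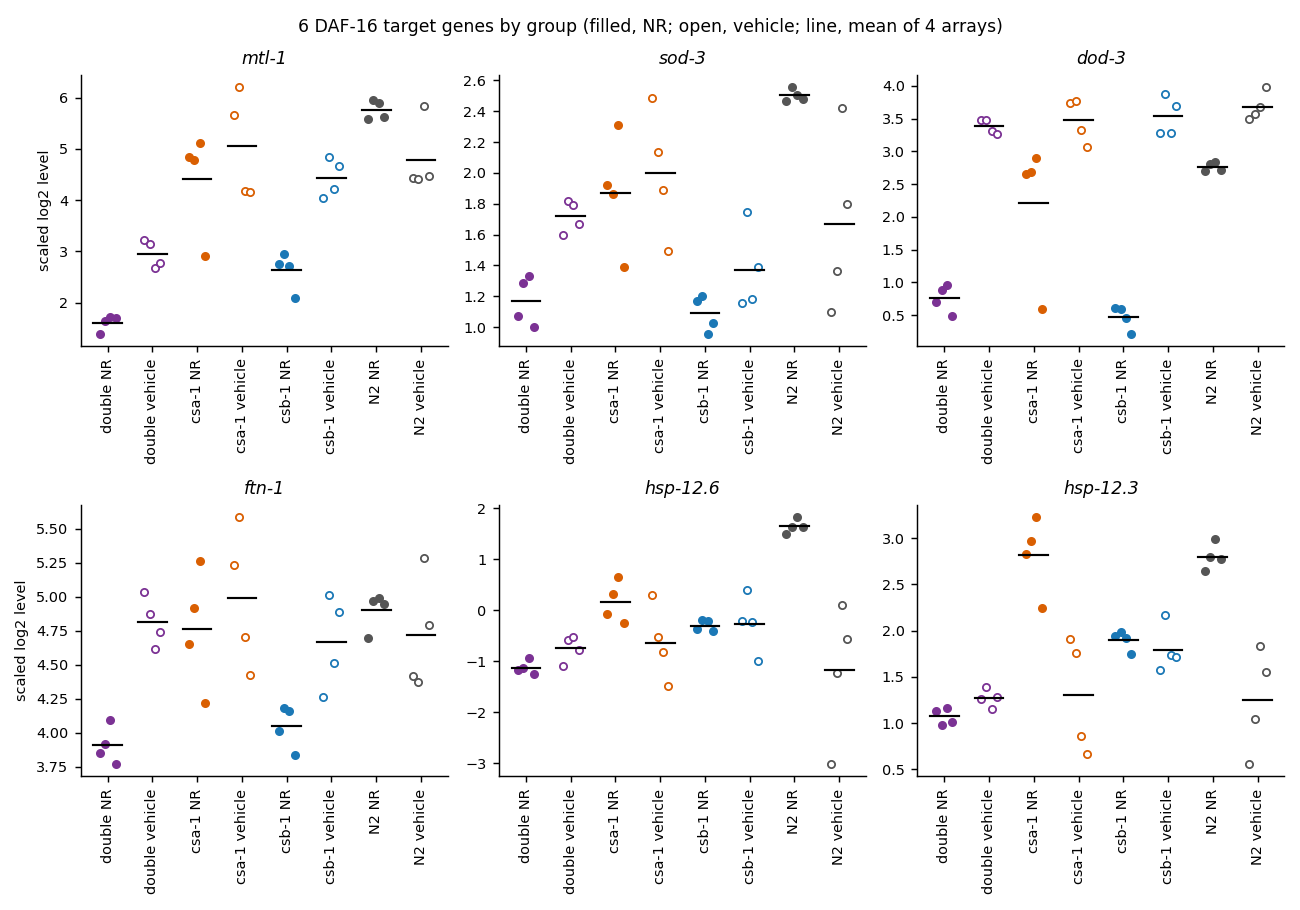
Scaled log2 level (y axis, own range per panel) of the DAF-16 targets mtl-1, sod-3, dod-3, ftn-1, hsp-12.6 and hsp-12.3 in the 8 groups, filled for NR, open for vehicle, with a line at the mean of 4 arrays. The double mutant on NR lies at 1.40 to 1.72 for mtl-1 and 1.0 to 1.33 for sod-3, against 5.58 to 5.96 and 2.47 to 2.56 in N2 on NR.

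Of the genes that DAF-16 is known to repress, 10 of 11 listed were measured. The insulin-like peptide gene ins-7, a ligand of DAF-2, rose on NR averaged over strains (6.11 against 5.18, difference 0.93, SE 0.20, adjusted p = 0.0018) and in carriers of the csb-1 mutation (also 6.11 against 5.18, adjusted p = 0.0056). Within single strains it was called in csa-1 alone (1.75, adjusted p = 0.0099), a call lost when the array labelled csa-1 NR replicate 4 was left out (1.38, adjusted p = 0.058). The yolk protein genes vit-2 and vit-5 fell on NR (-0.62 and -0.83, adjusted p = 0.013 for both), as did dod-24 (-0.94, adjusted p = 4.1e-06). For NR averaged over strains, 1.21% of all genes were called lower and 1.58% higher. The dod-24 gene also fell on NR in the double mutant (-1.43, adjusted p = 0.0012), where 1.37% of all genes were called lower. The calls of vit-2 and vit-5 ended with 75th percentile scaling (-0.32 and -0.48), quantile normalization (-0.22 and -0.24) and normexp correction (-0.38 and -0.67). Of the SKN-1 targets, 11 of 12 listed were measured. The glutathione S-transferase gene gst-10 fell on NR averaged over strains (1.08 against 1.73, difference -0.65, SE 0.11, adjusted p = 0.00011), and dhs-8, a dehydrogenase gene, fell on NR in the double mutant (2.28 against 3.22, difference -0.94, SE 0.13, adjusted p = 7.3e-05). In single comparisons gst-10 was called lower on NR in N2 (-0.90) and the double mutant (-0.81), and in csb-1 against N2 on vehicle (-0.93). These calls were lost in 6, 6 and 19 of 32 fits without 1 array. Without N2 vehicle replicate 1, the gst-10 calls for NR in N2 (-0.90, limma adjusted p = 0.077) and for csb-1 on vehicle (-0.93, adjusted p = 0.079) were lost. The NR effect on dhs-8 in csb-1 minus that in N2 was 0.91 (adjusted p = 0.048), lost in 26 of 32 fits without 1 array. The dhs-8 gene was also higher in csa-1 than in N2 on NR (2.96 against 2.29, difference 0.67, SE 0.13, adjusted p = 0.014). That call was lost in 7 of 32 fits without 1 array, the array labelled csa-1 NR replicate 4 among them (0.66), and with normexp correction (0.26, adjusted p = 0.94), 75th percentile scaling, quantile normalization, array weights, 1 probe per gene and only the groups compared. The gst-10 gene was higher in carriers of the csa-1 mutation (1.65 against 1.16, difference 0.49, SE 0.11, adjusted p = 0.0067), a call lost in 5 of 32 fits without 1 array, with 75th percentile scaling (0.41), quantile normalization (0.39) and normexp correction (0.25). Normexp correction also ended the averaged gst-10 call on NR (-0.61, adjusted p = 0.066) and the dhs-8 call in the double mutant (-1.39, adjusted p = 0.053). The gst-10 calls in single comparisons and the dhs-8 interaction ended with it too. The remaining SKN-1 targets, among them gcs-1, the glutamate-cysteine ligase of glutathione synthesis, were called in none of the 17 comparisons.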

How the data were processed

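The authors labelled cRNA made from 200 ng of total RNA with Cy3, hybridized it to Agilent arrays and deposited 1 scanner output per array, made with Feature Extraction 11.5.1.1 (per the submitters' processing notes). The intensity used is the deposited processed signal, linear and background-subtracted, with no scaling between arrays. A score table that the authors deposited beside it equals the Z-score of each array's log signal over all spots to within 0.0050 and holds 0 columns of other samples. Here, 1417 control spots of 45220 were left out, 50 probes with several spots were averaged, 289 probes with a spot marked as an outlier were dropped (none of the 28 pathway probes), and each array was put on the log2 scale as a Z-score times 3.74. No spot was saturated (0). The 75th percentile of intensity ran from 565 to 3883 over the arrays, and the number of arrays limits the precision.

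The limma (version 3.58.1, R 4.3.3) fit used all 32 arrays and 8 group means (24 residual degrees of freedom). Names were matched to the RefSeq gene table of WBcel235 (22730 of 28476 matched). The array design rests on the older WS190 annotation, so no coordinates are given. The script was tested on simulated data. All 10 genes were named; per gene the brightest probe leads, single changes are given for leading probes at an unadjusted p under 0.05, and called genes of the other lists are named. The genes and lists, which come from general knowledge of the pathway, were chosen with earlier results of these data known. The elt-2 gene stands in the regulator and the intestine lists, and vit-2 in the repressed target and the intestine lists. Alternatives were scaling, quantile normalization, normexp correction with an offset of 50 (on median foreground intensities), the deposited scores, filters, array weights, a replicate block and leaving out each array.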

Additional observations from a re-analysis of the deposited data

Results flagged for a closer look

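Each of 13 probes was examined in 8 groups of 4 arrays, and 3 of these sets of 4 held an array far from the other 3 by Dixon's criterion. Chance flags about 1 in 20 sets, which is more than were found. For daf-16 probe A_12_P105570, csa-1 NR replicate 1 lay high at 4.13, where the others were at 3.49 to 3.54. For sgk-1 probe A_12_P105652 the same array lay low at 1.85, where the others were at 2.54 to 2.66. For age-1 probe A_12_P145190, N2 NR replicate 2 lay low at 3.26, where the others were at 3.43 to 3.45.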

How the results depend on the processing

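The count of pathway probes called in each single comparison stayed at 0 under every alternative, with these exceptions: array weights called 1 in the double mutant against N2 on NR, skn-1 probe A_12_P117625 (0.87, adjusted p = 0.0079), and the adjusted p alone gave 1 for NR in N2, 2 for NR averaged over strains and 3 for the csa-1 mutation. The number past the F test was 3, and became 5 with 75th percentile scaling, with quantile normalization, with probes well above background on at least 4 arrays and with an intensity trend, 0 with normexp correction, 18 with array weights, and 6 without N2 vehicle replicate 1 and the array labelled csa-1 NR replicate 4 (chosen after seeing the data). Leaving out 1 array gave 1 to 7, with 1 without double mutant NR replicate 1 or replicate 4, 7 without N2 vehicle replicate 3, and 5 without csb-1 vehicle replicate 2, csa-1 vehicle replicate 2, N2 vehicle replicate 1 or the array labelled csa-1 NR replicate 4. Normexp correction turned 3 single changes round: age-1 for NR in the double mutant (-0.068), akt-2 in csa-1 against N2 on NR (-0.00023) and sgk-1 in the double mutant against N2 on NR (-0.046); the cause was not tested. The age-1 change on NR in the double mutant passed the adjusted p with 75th percentile scaling (0.027) and quantile normalization (0.040). Of the 53 called changes of target and regulator genes, 36 kept their call without each array in turn, 15 kept it under every other setting and 0 turned round. The replicate numbers did not pair the arrays: over 112 pairs of same-numbered arrays of different groups the correlation of deviations ran from -0.52 to 0.40, with 34 over 0.1, and 11 of 32 arrays correlated best with their own number. With the number as a block the F test count was 4 and 0 probes were called in each single comparison, and no call of a single change of the pathway genes changed (daf-2 probe A_12_P137010 on NR, adjusted p = 0.00027).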
